A study of Equus caballus with 2 samples.

Results

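Matricellular glycoproteins are secreted proteins that sit in the extracellular matrix and act mainly on how cells adhere, migrate and signal, rather than as the load-bearing fibres. Here 10 such genes were taken by name, with earlier results of these data known. They were *SPARC*, *SPOCK3*, *THBS1*, *THBS2*, *THBS3*, *COMP*, *TNC*, *SPP1*, *TGFBI* and *POSTN*, and each symbol was found once among the 21426 genes listed for both libraries. Most of these proteins are scarce in resting adult tissue and appear during wound repair and fibrosis, where TGF-β is one of the signals known to induce several of them.

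The genes were compared in cultured fibroblasts from the endometrium of female horses (*Equus caballus*). One library held untreated control cells and the other held cells given 10 ng/ml human recombinant TGF-β1 for 24 h. In both, passaged cells of 4 mares in the mid-luteal phase, with healthy or mildly fibrotic endometria from abattoir material, were grown on collagen-coated hydrogels, albumin took the place of serum during the treatment, and the 4 mares were pooled before capture, so that each condition is 1 droplet library. The age of these mares is not given in the sources used here. The study told the cells of the 4 animals apart from their reads, whereas the count tables used here give no animal for a cell, so values by mare were not analysed here.

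Transcripts were counted by their unique molecular identifiers (UMIs), and levels are given as UMIs per 1000000 UMIs of the library (CPM). Barcodes with under 20000 UMIs, under 3500 genes or 4% or more of mitochondrial UMIs were left out, which kept 3865 of 4384 control barcodes and 4513 of 5124 TGF-β1 barcodes. The median depth was 50313 UMIs per kept control cell and 43142 per kept TGF-β1 cell, and 2 kept barcode sequences occurred in both libraries. Differences are given as log2 ratios, with the control as the denominator. Their 95% intervals are exact binomial and cover counting error only. With 1 library per condition there is no replicate and no test, and library and treatment cannot be told apart.

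The fibroblast label was checked against its markers. All 9 fibroblast markers were found, with a summed level of 21715 CPM in control cells and 21795 CPM after TGF-β1. Of these, 2 were more than 2-fold lower, *PDGFRA* (log2 ratio -1.60) and *THY1* (-1.30). *VIM* (-0.97), *PDGFRB* (-0.71) and *DCN* (-0.23) were also lower, while *COL1A1*, *COL1A2*, *COL3A1* and *LUM* were higher, by 0.03 to 0.33. *COL1A1*, a fibroblast collagen gene, was present in 100% of the cells of both libraries. *EPCAM* and *CDH1* (epithelium), *PECAM1* (endothelium) and *PTPRC* (leukocytes) each had at most 0.0428 CPM in either library. The 6 epithelial markers found of 8 summed to 134 and 12.3 CPM, of which *KRT8* made 114 and 4.48 CPM. The 6 endothelial markers summed to 1.48 and 1.58 CPM, and the 6 immune markers to 56.7 and 52.9 CPM. The 7 smooth muscle and pericyte markers summed to 4549 and 5856 CPM, with *CNN1* more than 2-fold higher and *MCAM* more than 2-fold lower after TGF-β1. The 9 cycling markers found summed to 71.9 and 49.9 CPM. The part of these shifts in the values below was not tested.

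Together, the 10 matricellular genes took up 0.420% of the UMIs of the control library and 0.783% of those of the TGF-β1 library. The level was higher after TGF-β1 for 9 of the 10, and lower for *THBS3*. The 6 genes *SPARC*, *TNC*, *THBS1*, *THBS2*, *THBS3* and *TGFBI* reached a mean of 10 CPM over both libraries. Of these 6, 2 (*TGFBI* and *TNC*) were more than 2-fold higher and 0 were more than 2-fold lower, where 2.3% of 7658 genes with that mean were more than 2-fold higher, 2.13% more than 2-fold lower and 4.43% past 2-fold either way. Past 1.5-fold, 3 of the 6 were higher, *SPARC* being the added one, and 0 lower, against 6.19% and 6.48% of the 7658 genes. By any size, 5 of the 6 were higher, against 51.4%. Since the 10 genes were chosen with earlier results known, these shares describe them and give no independent support. The median log2 ratio of the 6 was 0.57, against 0.01 over the 7658 genes. The other 4 (*COMP*, *SPP1*, *SPOCK3* and *POSTN*) lay under that minimum, with ratios above 2-fold in each case, although the interval of *POSTN* also held smaller ratios. Over 1 CPM on average there were 9 of the 10 genes, 8 of them higher and 5 past 2-fold in that direction, with 0 past it in the other. The shares of all 12116 genes over 1 CPM were 48.7%, 3.45% and 3.46%, and 6.91% were past 2-fold either way. *COMP* reached 1 CPM only through the library in which it was high, so its place among these 5 carries no weight of its own.

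**Figure D1:**
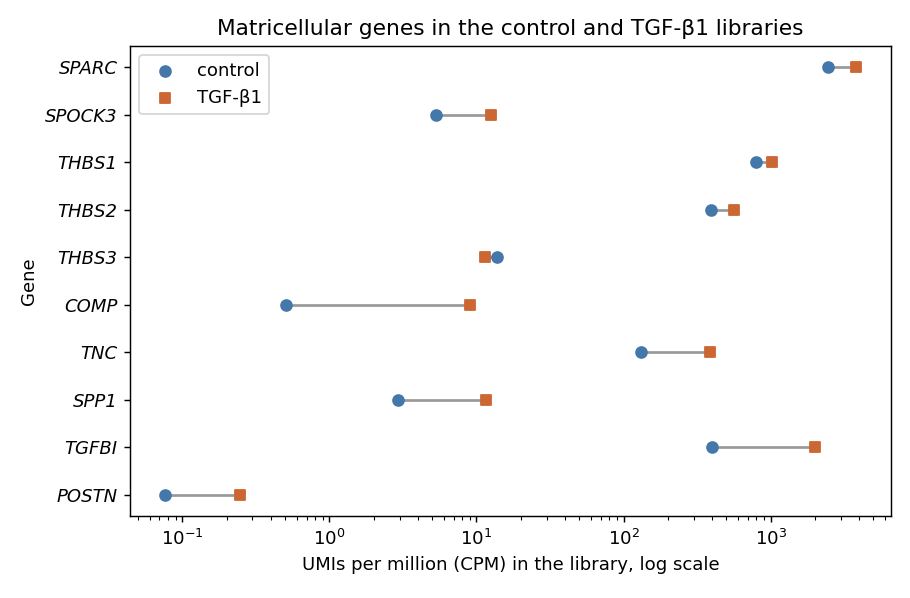
Level of each matricellular gene in the control library (circles) and the TGF-β1 library (squares), as CPM on a log axis, with a line joining both values of a gene. The widest gap is that of COMP, from 0.508 to 8.98 CPM, and THBS3 is the one gene with its square to the left of its circle.

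The SPARC family is represented by a collagen-binding protein and a proteoglycan. *SPARC* (ENSECAG00000013874) encodes osteonectin, a calcium-binding glycoprotein that binds collagen and takes part in the assembly of its fibrils. Its level was 2453 CPM in control cells and 3804 CPM after TGF-β1, with a log2 ratio of 0.63 (0.63 to 0.64). *SPARC* was found in every kept cell of both libraries.

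*SPOCK3* (ENSECAG00000024906) encodes testican-3, a proteoglycan of the same family that is known to inhibit the activation of matrix metalloproteinases at the cell surface. The level of *SPOCK3* was 5.31 CPM in control cells and 12.6 CPM after TGF-β1, with a log2 ratio of 1.25 (1.15 to 1.35). These SPARC family genes were higher after TGF-β1 by 1.55-fold and 2.37-fold. Their relatives, picked after their values were seen, went both ways. *SPOCK1* had a log2 ratio of 0.91 (0.64 to 1.19), *SPARCL1* 0.57 (0.44 to 0.70) and *SMOC1* 0.57 (0.20 to 0.94), whereas *SMOC2* had -0.51 (-0.55 to -0.47), and *FSTL1* -0.02 (-0.04 to 0.00) and *SPOCK2* 0.06 (-0.66 to 0.79) were near 0.

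Among the thrombospondins, THBS1 and THBS2 form trimers that bind the receptors CD36 and CD47, and THBS1 is known for its ability to activate latent TGF-β. *THBS1* (ENSECAG00000008923) had 791 CPM in control cells and 1022 CPM after TGF-β1, with a log2 ratio of 0.37 (0.36 to 0.38). *THBS2* (ENSECAG00000021122) had 395 and 561 CPM, a log2 ratio of 0.51 (0.49 to 0.52). Neither of the trimeric thrombospondins differed by 1.5-fold.

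THBS3 and COMP, which is also named thrombospondin-5, form pentamers, and COMP binds collagens and fibronectin. The pentameric pair differed in opposite directions. *THBS3* (ENSECAG00000011993) had 13.8 CPM in control cells and 11.4 CPM after TGF-β1, with a log2 ratio of -0.28 (-0.36 to -0.20). *COMP* (ENSECAG00000000336) had 0.508 CPM without TGF-β1, from 107 UMIs, and 8.98 CPM with it, from 1974 UMIs. This is a log2 ratio of 4.14 (3.86 to 4.44), or 17.7-fold, the largest of the 10 genes.

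Tenascin-C is a many-armed glycoprotein that is laid down in wounds and loosens the adhesion of cells to fibronectin. *TNC* (ENSECAG00000017433) had 132 CPM in control cells and 389 CPM after TGF-β1, with a log2 ratio of 1.56 (1.54 to 1.58), or 2.94-fold. Osteopontin is an acidic phosphoprotein that binds integrins and CD44. Its gene *SPP1* (ENSECAG00000017191) had 2.91 CPM in control cells and 11.6 CPM after TGF-β1, with a log2 ratio of 1.99 (1.86 to 2.12).

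TGFBI and periostin are related proteins built of fasciclin domains. *TGFBI* (ENSECAG00000020193), a gene named for its induction by TGF-β, had 401 CPM in control cells and 2005 CPM after TGF-β1, with a log2 ratio of 2.32 (2.31 to 2.33), or 5.01-fold. Periostin, which is widely used as a mark of activated fibroblasts, was near the limit of detection. *POSTN* (ENSECAG00000023841) had 16 UMIs in all control cells and 54 in all TGF-β1 cells, 0.0760 and 0.246 CPM, and its log2 ratio of 1.69 had an interval of 0.87 to 2.60.

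To see whether few or most cells carried these differences, each cell was thinned at random to 20000 UMIs, so that all cells had the same depth. *TGFBI* differed across nearly the whole population. The median control cell had 6 *TGFBI* UMIs, with 1 at the 10th and 17 at the 90th percentile, and the median TGF-β1 cell had 37, with 21 at the 10th and 60.8 at the 90th percentile. Of the TGF-β1 cells, 99.6% lay above the control median and 86.7% above the 95th percentile of control cells. The 10th to 90th percentile ranges did not overlap. At least 1 *TGFBI* UMI was present in 93.5% of control cells (92.7% to 94.3%) and in 100% after TGF-β1 (99.9% to 100%).

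*SPARC* was also shifted across the population, but with wide overlap. The median cell had 46 *SPARC* UMIs in the control and 73 in the TGF-β1 library, with 10th to 90th percentiles of 30 to 69 and of 52 to 101. In the TGF-β1 library, 94.2% of cells lay above the control median for *SPARC* and 41.1% above the control 95th percentile.

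*TNC* was uneven among cells in both libraries. The median cell had 1 *TNC* UMI in the control and 5 in the TGF-β1 library, and the 90th percentiles were 6 and 16. The 10% of cells with most *TNC* held 42.8% of its control UMIs and 33.7% of its TGF-β1 UMIs, compared with 16.7% and 15.2% for *SPARC*. This share also rises where counts are low, and the mean cell had 2.42 and 7.32 *TNC* UMIs against 48.2 and 75.0 of *SPARC*. In control cells *TGFBI*, with a mean of 7.73 UMIs, had a share of 32.1%, and *THBS2*, with 7.65, had 27.0%. The share of cells with *TNC* was 68.0% (66.5% to 69.5%) without TGF-β1 and 92.6% (91.8% to 93.4%) with it, and without thinning in 82.8% and 96.6%.

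Among the 5 abundant genes, the trimeric thrombospondins had the smallest shares of TGF-β1 cells above the control 95th percentile. The median cell had 12 *THBS1* UMIs in the control and 16 in the TGF-β1 library, and 9.22% of TGF-β1 cells exceeded the control 95th percentile, compared with 4.89% of the control cells themselves. For *THBS2* the medians were 6 and 10 UMIs, and 10.8% of TGF-β1 cells exceeded the control 95th percentile. The distributions of both genes overlapped over most of their range.

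**Figure D2:**
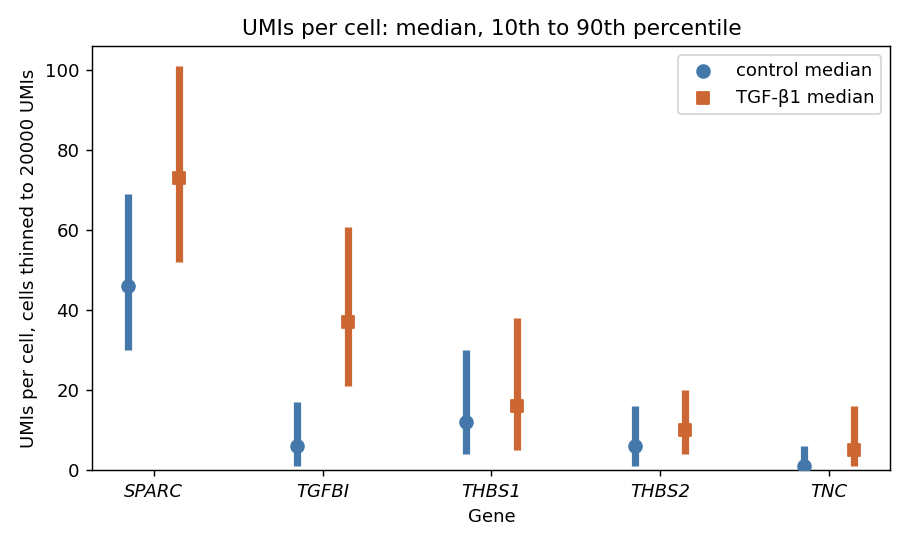
UMIs per cell of the 5 abundant matricellular genes after thinning to 20000 UMIs per cell; markers are medians and bars run from the 10th to the 90th percentile of the 3865 control cells (circles) and 4513 TGF-β1 cells (squares). For TGFBI the bars do not overlap, from 1 to 17 UMIs in control and from 21 to 60.8 UMIs in TGF-β1 cells, whereas those of the other 4 genes do.

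The remaining genes were found in a minority of cells. *COMP* was found in 28 control cells, 0.724% (0.482% to 1.05%), and in 428 TGF-β1 cells, 9.48% (8.64% to 10.4%). *SPP1* was found in 3.96% (3.37% to 4.62%) and 10.3% (9.47% to 11.3%) of cells. For *SPOCK3* the shares were 6.44% (5.69% to 7.26%) and 13.4% (12.4% to 14.4%). Without thinning, the shares were 1.94% and 15.9% for *COMP*, 8.85% and 17.3% for *SPP1*, and 11.3% and 20.7% for *SPOCK3*. Asking for at least 2 thinned UMIs, they were 0.0517% and 3.57% for *COMP*, 1.01% and 4.43% for *SPP1*, and 1.86% and 5.47% for *SPOCK3*, so the size of these shares depends on the depth and the minimum chosen.

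Most of the cells that carried a sparse gene had a single UMI of it, beside few with many. Of the TGF-β1 cells with *COMP*, 62.4% had exactly 1 thinned UMI, and the highest had 27. The 46 TGF-β1 cells with most *COMP* held 38.4% of its thinned UMIs, and the 46 with most *SPP1* held 39.1% of those of *SPP1*, up to 44 UMIs in 1 cell. *SPOCK3* was spread more evenly, with 23.5% of its UMIs in its top 46 cells and at most 9 in a cell. The share of cells with *THBS3* was 22.7% (21.4% to 24.0%) in the control and 17.4% (16.3% to 18.6%) in the TGF-β1 library. For *POSTN* it was 0.103% (0.0282% to 0.265%) and 0.443% (0.271% to 0.684%), from 4 and 20 cells. No cell type that should lack these genes was present, so free RNA in the droplets was not measured.

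Counting the genes per thinned cell, the commonest number of the 10 found was 5 in both libraries, at 53.5% of cells without and 56.5% with TGF-β1. At least 6 were found in 19.8% of control cells and 39.0% of TGF-β1 cells, and no cell held all 10. At least 4 were found in 95.9% of the cells without TGF-β1 and in 99.8% of those with it.

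The kept cells were clustered on the other genes, with the 10 matricellular genes and 27 related ones removed from the variable genes, to see whether the differences were alike among kinds of fibroblast. This gave 8 rebuilt clusters, which held 105 to 745 control cells and 58 to 1095 TGF-β1 cells. In all 8 clusters 7 genes, *SPARC*, *SPOCK3*, *THBS1*, *THBS2*, *TNC*, *SPP1* and *TGFBI*, were higher after TGF-β1, of the 8 with over 3 UMIs on each side in every cluster. Of 11116 genes with that many UMIs, 19.4% were higher in all 8 clusters and 1.03% more than 2-fold higher in all 8. *TGFBI*, *TNC* and *SPP1* were among the latter, with log2 ratios of 2.10 to 2.65 for *TGFBI*, 1.01 (0.95 to 1.06) to 2.00 for *TNC* and 1.05 (0.33 to 1.81) to 3.08 for *SPP1*. The intervals of *TNC* in cluster 2 and of *SPP1* in cluster 6, the lowest of each, also held ratios under 2-fold. *SPARC* had the narrowest range, 0.53 to 0.76.

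*THBS1* was higher by 0.17 to 0.56 on the log2 scale and *THBS2* by 0.46 to 0.97, and neither passed 2-fold in any of the 8. At a lower resolution, with 6 clusters, *THBS1* was lower in 1, by -0.11. *SPOCK3* passed 2-fold in 5 clusters, with log2 ratios of 0.62 to 1.72, but in 4 of these the interval also held ratios under 2-fold, and cluster 1 (1.51 to 1.93) was the exception. A ratio could be given for *COMP* in 7 clusters, those with over 3 UMIs on each side. It ran from 2.05 (1.08 to 3.13) in cluster 2 to 5.29 (3.90 to 7.18) in cluster 5, from 12 and 4 control UMIs. The *COMP* interval of cluster 6 (2.78 to 6.11), also from 4 control UMIs, overlapped that of cluster 2. Cluster 7, left out with 3 control UMIs, had 0.525 CPM of *COMP* without and 3.52 CPM with TGF-β1. *THBS3* was lower in 6 clusters and higher in 2, by 0.22 (-0.16 to 0.61) in the cycling cluster 6 and 0.86 (0.07 to 1.65) in cluster 7, which held 58 TGF-β1 cells. The intervals of 3 of the 6 lower clusters, numbers 2, 4 and 5, also held 0. Without integration of the 2 libraries, 1 of 9 clusters held at least 50 cells of each library, and 1 gene, *TGFBI*, was higher in all 9.

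**Figure D3:**
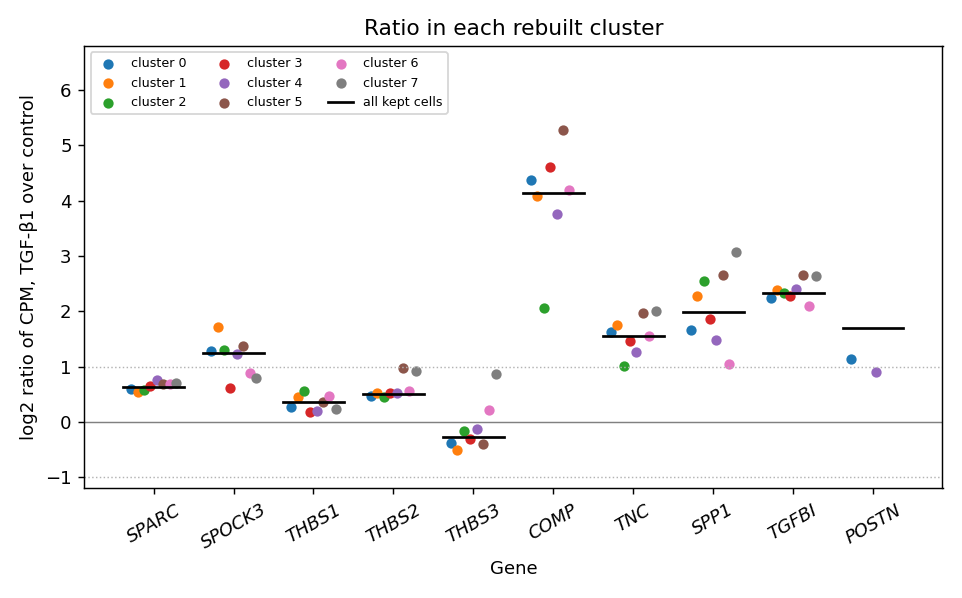
Log2 ratio of CPM, TGF-β1 over control, of each gene in each of the 8 rebuilt clusters (points) and in all kept cells (black lines); dotted lines mark 2-fold, and clusters with 3 or fewer UMIs in either library are left out. SPARC has the tightest group of points, and THBS3 lies on both sides of 0. COMP lies at 2.05 in cluster 2 and at 3.76 or above in the other clusters shown, and its intervals in clusters 2 and 6 overlap.

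*SPP1* and *COMP* were placed differently among the clusters. *SPP1* was highest in cluster 2, with 8.12 CPM without and 47.4 CPM with TGF-β1, whereas the other 7 clusters had 0.875 to 2.56 CPM without and 3.77 to 9.42 CPM with it. Cluster 2 held 13.7% of the TGF-β1 cells and 62.3% of the library's thinned *SPP1* UMIs. In the control library it held 19.1% of the cells and 59.8% of the *SPP1* UMIs. After TGF-β1, *SPP1* was found in 32.9% (29.2% to 36.8%) of the cells of cluster 2, and in 3.45% to 8.91% of the cells of the others.

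In the same cluster *COMP* was at its lowest after TGF-β1. It had 1.16 CPM in cluster 2, where it was found in 1.45% (0.666% to 2.74%) of TGF-β1 cells. The highest level of *COMP* was 21.2 CPM, in cluster 5, and the highest share was 15.6% (13.0% to 18.5%), in cluster 4, which did not differ beyond its interval from the 13.9% (9.41% to 19.4%) of cluster 5. *SPOCK3* was low in clusters 2 and 5, at 4.11 and 4.23 CPM, with shares of 5.32% (3.69% to 7.39%) and 8.42% (4.98% to 13.1%) whose intervals overlap. It was highest in cluster 1, with 20.4 CPM and 19.4% (17.0% to 21.9%) of cells, which did not differ beyond its interval from the 17.4% (14.6% to 20.6%) of cluster 3.

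*TNC* was highest in cluster 1 after TGF-β1, at 575 CPM, and lowest in clusters 5 and 2, at 171 and 221 CPM. The keratin gene *KRT8* was the leading gene of cluster 2, with 245 CPM there without and 13.3 CPM with TGF-β1. The other clusters had 10.1 to 179 CPM of *KRT8* without and 0.704 to 8.33 CPM with it, with cluster 5 the highest of them in both libraries. The epithelial markers *EPCAM* and *CDH1* had 0 and 1 UMI in the control cells of cluster 2, and 0 and 3 in its TGF-β1 cells. *KRT7*, another epithelial keratin, was highest in cluster 2, with 49.6 CPM without TGF-β1 against 8.57 to 14.8 CPM in the other clusters, and with 17.7 against 3.04 to 8.87 CPM after it. The leukocyte marker *PTPRC* had 1 and 0 UMIs in cluster 2, and *COL1A1* had 5758 and 6168 CPM. The clusters are groups of cells of the same 2 libraries, and whether they reflect single mares was not tested.

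**Figure D4:**
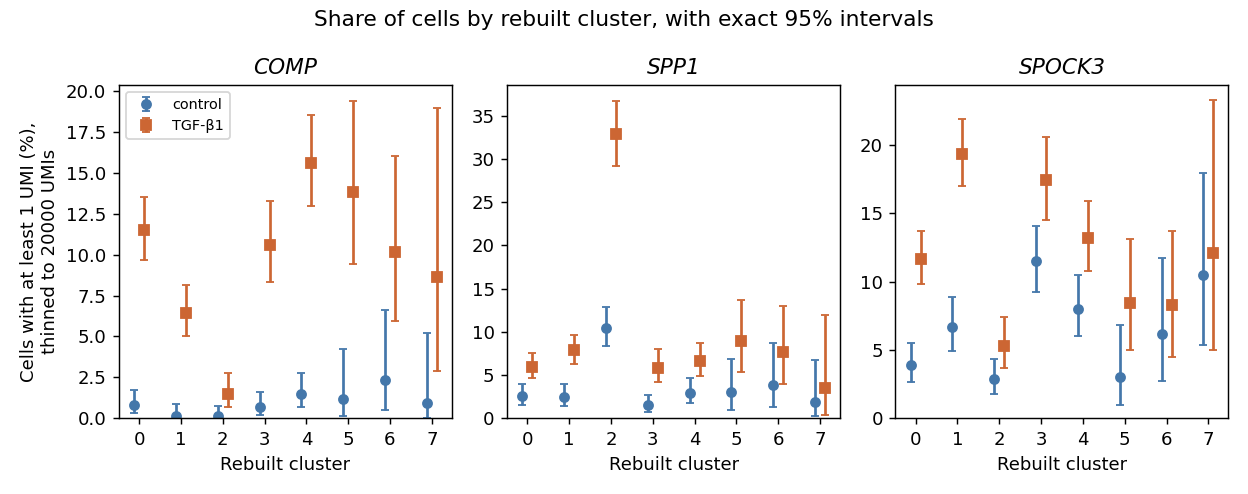
Share of cells with at least 1 UMI of COMP, SPP1 or SPOCK3 in each rebuilt cluster after thinning, in the control (circles) and TGF-β1 (squares) libraries, with exact 95% binomial bars and a separate percent axis for each gene. In TGF-β1 cells of cluster 2 the share is 32.9% for SPP1, 1.45% for COMP and 5.32% for SPOCK3.

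Cells of greater depth carried a larger part of their UMIs as some of these transcripts. In the control library, *TNC* had 71.4 CPM in cells with 20000 to under 40000 UMIs, 120 CPM in those with 40000 to under 60000 and 168 CPM in those with at least 60000. In the TGF-β1 library the same ranges had 300.1, 385 and 467 CPM of *TNC*. The log2 ratio of *TNC* was thus 2.07, 1.68 and 1.48 in the 3 ranges, above 2-fold in each.

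*COMP* had the opposite order after TGF-β1, with 13.2, 7.53 and 7.35 CPM from the lowest to the highest range. *TGFBI* had log2 ratios of 2.53, 2.39 and 2.25 over these ranges. *THBS3* had -0.25, -0.30 and -0.18, and *POSTN* had too few UMIs in the lowest range. In the 95 control and 95 TGF-β1 cells with at least 3 cycling markers, the log2 ratio was 0.84 for *SPARC*, 1.39 for *TNC* and 2.15 for *TGFBI*, and that of *THBS3*, 0.16 (-0.33 to 0.66), was not detectable as a difference at this depth.

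Co-detection was read in thinned cells, for pairs of genes found in 5% to 95% of the cells of both libraries. These were *TNC*, *THBS3* and *SPOCK3*, which make 3 pairs, and in 0 of the 3 was the second gene found more often in cells with the first gene in both libraries. In the TGF-β1 library, *SPOCK3* was found in 13.8% (12.7% to 14.9%) of cells with *TNC* and in 8.41% (5.66% to 11.9%) of the 333 cells without it. These shares were 9.03% (8.13% to 10.0%) and 6.90% (5.22% to 8.90%) with cells thinned to 10000 UMIs, and 5.55% and 5.11% when at least 2 UMIs were asked for, so the separation of the intervals rests on the first setting. In the control library the shares were 6.43% (5.52% to 7.44%) and 6.47% (5.16% to 7.98%). The pair of *TNC* and *SPOCK3* was not compared within clusters.

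The TGF-β1 library was also read alone, for the 5 genes found in 5% to 95% of its cells, a choice made after seeing the data. *SPP1* was found in 9.50% (8.63% to 10.4%) of cells with *TNC* and in 21.0% (16.8% to 25.8%) of cells without it. Cluster 2, where *SPP1* was most frequent, held 99 of the 333 cells without *TNC*. Within cluster 2 the *SPP1* shares were 29.9% (26.0% to 34.1%) with and 48.5% (38.3% to 58.7%) without *TNC*, and within the other clusters together 6.59% (5.80% to 7.44%) and 9.40% (5.99% to 13.9%), where the intervals overlap. The mean of *TNC* was 5.19 thinned UMIs in the 467 cells with *SPP1* and 7.56 in the other cells, with 3.50 and 4.46 within cluster 2 and 6.50 and 7.92 outside it. *COMP* and *SPP1* were found together in 34 cells, 0.753% (0.522% to 1.05%), and the product of their shares is 0.981%. *SPP1* was found in 7.94% (5.56% to 10.9%) of cells with *COMP* and in 10.6% (9.67% to 11.6%) of cells without it, and these intervals overlap. Among all pairs of the 5 genes, 5 went the other way, with the second gene found more often in cells with the first. One was *COMP*, found in 9.76% (8.88% to 10.7%) of cells with *TNC* and in 6.01% (3.71% to 9.12%) without it, where the intervals overlap.

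The levels of the 5 abundant genes were also compared between TGF-β1 cells with and without each of 4 sparse genes, and the values that follow were picked from these 20 comparisons after they were seen. Cells with *COMP* had a mean of 15.6 thinned UMIs of *THBS1*, compared with 19.8 in cells without *COMP*. Outside cluster 2, where nearly all cells with *COMP* lay, these means were 15.5 and 19.1, with the other clusters pooled. Among those, cluster 1 had a mean of 25.8 *THBS1* UMIs and *COMP* in 6.46% of cells. Cluster 5 had 11.4 and 13.9%, and cluster 4 had 19.0 and 15.6%. The part of the clusters in this difference was not tested. Over all TGF-β1 cells with and without *COMP*, the means of *THBS2* were 9.79 and 11.1 and those of *TNC* 7.75 and 7.27. Those of *TGFBI* were 37.4 and 39.5, and those of *SPARC* 76.8 and 74.8. Cells with *SPOCK3* had a mean of 8.71 *TNC* UMIs, 1.23 times that of cells without it. After TGF-β1 both genes were highest in cluster 1 and low in clusters 2 and 5, and this pair was not compared within clusters.

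Over single cells, the abundant genes varied together only weakly. Between pairs of *SPARC*, *TNC*, *THBS1*, *THBS2* and *TGFBI*, the Pearson correlation of log thinned UMIs was 0.14 to 0.36 over 3865 control cells and 0.11 to 0.28 over 4513 TGF-β1 cells. These points share their library, and cells of 1 mare or cell cycle stage may share their values. Among 6835 other genes, those most like *SPARC* were *COL3A1* (0.40 in control and 0.39 in TGF-β1 cells) and *COL1A2* (0.37 and 0.33), which encode chains of the fibrillar collagens III and I.

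The genes most like *TNC* were the integrin subunit gene *ITGB1* (0.33 and 0.34), *LTBP1* (0.33 and 0.37), whose protein stores latent TGF-β in the matrix, and *STK38L* (0.32 and 0.32). Both trimeric thrombospondins were most like *COL12A1*, a fibril-associated collagen, with 0.39 and 0.44 for *THBS1* and 0.47 and 0.34 for *THBS2*, and both were close to the proteoglycan gene *VCAN*. *THBS1* was also like the unnamed gene ENSECAG00000050273 (0.38 and 0.32), and *THBS2* like *COL3A1* (0.32 and 0.35). No gene reached 0.3 in both libraries for *TGFBI*. The nearest was *C1QTNF3*, with 0.35 and 0.28.

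Another 27 genes that are usually called matricellular were all found, and of the 17 over 1 CPM on average, 8 were higher and 9 lower after TGF-β1, with a median log2 ratio of -0.02, where 48.7% of the 12116 genes were higher with a median of -0.01. Past 2-fold, 3 of these 17 were higher and 3 lower, where 3.45% and 3.46% of the 12116 genes were. Of the 11 over 10 CPM, 3 were higher and 8 lower, with a median of -0.42, where 51.4% of the 7658 genes were higher with a median of 0.01. Past 2-fold, 0 of the 11 were higher and 2 lower, where 2.3% and 2.13% of the 7658 genes were. *CCN2*, which encodes connective tissue growth factor, was the highest of those over 10 CPM (0.85), and *CCN1* had a log2 ratio of 0.02. The lowest were *LGALS3* (558 to 198 CPM), which encodes galectin-3, *CCN5* (-1.03) and *FBLN1* (-0.54), which encodes fibulin-1. Of the families of the 10 genes, the tenascins differed in opposite directions, with *TNN* from 4.17 to 11.1 CPM (1.41) and *TNXB* from 13.3 to 4.46 CPM (-1.58), a pair chosen after their values were seen.

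Of the receptors that bind these proteins, 22 of 23 were found by symbol and *ITGAV* was not. Of the 19 over 1 CPM, 11 were higher and 8 lower, with a median log2 ratio of 0.18, where 48.7% of the 12116 genes were higher with a median of -0.01. Over 10 CPM the median of the receptors was 0.01. The highest of those over 10 CPM were the integrin subunits *ITGB3* (6.31 to 16.6 CPM, 1.39), *ITGA5* (1.00) and *ITGB5* (0.81). The lowest were *ITGB8* (15.8 to 4.74 CPM, -1.73), the syndecan gene *SDC4* (-1.52) and *ITGA8* (-0.84). *ITGB3* and *ITGB8* each passed 10 CPM on average only through the library in which they were high. *CD47*, the thrombospondin receptor, had a log2 ratio of -0.51, and *CD44*, the osteopontin receptor, 0.01 (-0.01 to 0.03). These 2 receptors were picked for their ligands after their values were seen.

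All 28 genes of matrix proteins and proteases that bind or cut these glycoproteins were over 1 CPM, with 19 higher and 9 lower and a median log2 ratio of 0.30, where 48.7% of the 12116 genes were higher with a median of -0.01. The highest of those over 10 CPM were *FN1* (1.65), *COL12A1* (1.51) and *LTBP1* (1.40). The lowest were *ADAMTS1* (-1.56), a protease that cleaves thrombospondins, *PLAT* (-1.47) and *ADAMTS12* (-0.64), a protease that degrades COMP. *ADAMTS7*, the other protease known to degrade COMP, had a log2 ratio of 0.78, from 8.62 to 14.8 CPM, and was picked after its value was seen.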

How the data were processed

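For each library the authors deposited whole-number UMI counts of genes by barcode, from Cell Ranger and EquCab3.0 (7.1.0 in the submitters' processing notes, 8.0.1 per the file headers), not normalized. Cells were kept as in the study, without its removal of doublets, which rests on the reads. Scrublet in scanpy 1.11.5 marked 2 control and 0 TGF-β1 cells, and these were kept. No doublets were removed for the main values, and the Scrublet count could not be compared with the doublets that the study removed. UMIs were summed per library (210497250 control, 219731144 TGF-β1) and divided by the library total to give CPM, with no pseudocount. The tools were pandas 2.3.3, scipy 1.17.1 and numpy 2.4.6 under Python 3.11.15, and matplotlib 3.10.9. A ratio was given with more than 3 UMIs in either library, and per cluster in both. Clusters came from Seurat 5.3.0 in R 4.3.3 (2000 variable genes, 30 dimensions, canonical correlation integration, resolution 0.5). The calculation of the ratio was also run on simulated counts, and the outcome is not given here. No test between conditions was possible with 1 library each. All 10 members are named, with the 3 largest ratios in each direction of each list over 10 CPM and the 3 most correlated genes with r of at least 0.3 in both libraries, among genes found in at least 20% of cells. The members and lists were chosen with earlier results of these data known. Levels were not compared between genes. One gene that this rule names is not reported here. No sequences or positions were used. The alternatives are given in the closing section.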

Additional observations from a re-analysis of the deposited data

How the results depend on the processing

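Each of the 10 log2 ratios was recomputed under 12 alternatives of cell filter, doublet removal, scaling, cluster composition, cycling cells and depth, and all 10 kept their sign in all 12. Of these 120 values, 96 stayed inside the counting interval, and the largest move was that of *COMP*, to 4.53 with thinned cells. Over 10 CPM on average, the number of the 10 genes past 2-fold stayed within 1.5 times of 2 under these and with a 1.5-fold limit. It was 5 over 1 CPM and 6 with no minimum, where more genes enter. Over 10 CPM, the median of the other matricellular genes was -0.42 and that of the receptors of the 10 genes was 0.010, since low genes leave the lists. Asking for at least 2 UMIs, 2 of the 3 pairs were found together more often in both libraries, with overlapping intervals. Without integration, 1 of the 10 genes had 1 direction in all 9 clusters, of which 1 held at least 50 cells of each library. The shares of cells depend on the thinning and the minimum of UMIs, and 48 of 60 alternative shares moved beyond their interval. No paired analysis was possible because the counts give no animal for a cell, although the same 4 mares were pooled in both libraries. Depth limits the values of *POSTN*, which had the fewest UMIs of the 10 genes in both libraries (16 and 54). It also limits *COMP* in control cells, the next lowest there with 107 UMIs.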
